A study of Mus musculus with 8 samples.

Results

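The miR-200 and miR-141 family was followed through 6 mature microRNAs (miRNAs) of the 1978 in the deposited table: mmu-miR-200a-3p, mmu-miR-200a-5p, mmu-miR-200b-3p, mmu-miR-200c-3p, mmu-miR-141-3p and mmu-miR-429-3p, written below without the species prefix except where each is first given with its values. They were taken by name, and all 6 passed the filter on low counts. The libraries came from splenic CD8+ T cells of C57BL/6 mice, enriched with magnetic beads, in 2 groups that differ only in age as far as the labels say: neonatal mice of 5 to 7 days (n = 4) and adult mice of 12 weeks (n = 4). The labels name no treatment or altered allele, and do not say whether a library is 1 animal or a pool, so the p-values measure the spread between these libraries, which may be technical. The comparison asked which family members differ between the ages, and whether the hairpin cluster, the seed or the arm of the hairpin went with the difference.

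A miRNA is cut from a hairpin precursor whose sides give a 5p and a 3p strand, of which 1 is usually loaded into Argonaute and the other is mostly discarded. Bases 2 to 8 of the loaded strand, the seed, largely determine which messenger RNAs it represses. The miR-200 family is known as an epithelial family that represses the transcription factors Zeb1 and Zeb2, with which it forms a mutually repressing loop, and Zeb1 and Zeb2 also act in T cell development and in the effector and memory states of CD8+ T cells. In these data no messenger RNA was measured.

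The family is encoded in 2 clusters (mm10, RefSeq table of GRCm38.p6, GENCODE M21). The hairpins of miR-200b, miR-200a and miR-429 lie within 1846 bp of the minus strand of chromosome 4 (156053905 to 156055750), in introns of the protein-coding gene Ttll10 on the same strand. They also lie within the noncoding gene Gm13648, where miR-429 falls in an exon. The hairpins of miR-200c and miR-141 lie within 477 bp of the minus strand of chromosome 6 (124717914 to 124718390), in an intron of the noncoding gene Gm15884, and miR-141 partly overlaps an exon of the transcript Gm29008. Mature sequences from RefSeq were found for all 6 members. They are shown because the seed, in capitals, divides the 3p strands across the clusters.

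miR-200a-3p, chromosome 4: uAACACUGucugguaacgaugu
miR-141-3p, chromosome 6: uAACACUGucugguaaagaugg
miR-200b-3p, chromosome 4: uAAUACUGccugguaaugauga
miR-200c-3p, chromosome 6: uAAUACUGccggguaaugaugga
miR-429-3p, chromosome 4: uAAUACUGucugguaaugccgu
miR-200a-5p, chromosome 4: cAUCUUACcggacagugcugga

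Counted from the 5′ end, miR-200a-3p and miR-141-3p differ at 2 positions, C17A and U22G, both outside the seed. miR-200b-3p and miR-200c-3p also differ at 2 of the 22 positions they share (U11G and A22G). miR-200a-3p and miR-200b-3p, which lie in the same cluster, differ at 4 positions, of which C4U is in the seed. No other mature miRNA in the RefSeq table has the seed of miR-200a-3p and miR-141-3p or that of the other 3p members.

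Both 3p members with the seed AACACUG, miR-200a-3p and miR-141-3p, were about 4-fold lower in neonatal than in adult libraries, although they come from different clusters. miR-141-3p had only 2 to 25 counts per library, and its reads are not fully separated from those of miR-200a-3p (below). Its fall may therefore not be a separate observation. The 3 members with the seed AAUACUG, miR-200b-3p, miR-200c-3p and miR-429-3p, did not pass the test, and neither did miR-200a-5p from the other side of the miR-200a hairpin. Thus 2 of 6 members were lower (33.3%) and none higher, while 63.2% of all 375 miRNAs tested changed, 34.1% lower and 29.1% higher, by edgeR's quasi-likelihood test at an adjusted p under 0.05. The median log2 fold change (neonatal over adult) was -0.31 over the members and -0.05 over all miRNAs tested. The share of members that were lower was thus near that of all miRNAs, and what follows concerns the differences within the family.

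Total counts were 1281031 to 2606630 per library. Levels are given as CPM, counts scaled to a common depth, with TMM factors, a scaling that brings libraries to a common level by a trimmed mean of their ratios, and a floor of 3 counts per library, which covers counting error only, corresponds to 1.07 to 2.91 CPM. Scaling by library totals in place of TMM moved the median of all log2 fold changes up by 0.63, so each direction below is relative to the TMM scale. A list of 6 T cell and lymphocyte miRNAs, led by miR-150-5p, took 11.4% to 17.0% of adult and 8.81% to 9.55% of neonatal counts. The 6 family members took 0.228% ± 0.00923 (SD, n = 4) of adult and 0.255% ± 0.0116 of neonatal counts.

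mmu-miR-200a-3p is the main strand of its hairpin. It stood at 579, 902, 682 and 993 CPM in adult libraries 1 to 4 and at 87.5, 199.9, 152 and 262 CPM in neonatal libraries 1 to 4. The groups did not overlap, as was the case for 57.3% of all miRNAs tested and for 1 of the 6 members. Group means of 789 ± 191 (SD, n = 4) and 175 ± 73.8 CPM gave a log2 fold change of -2.17 ± 0.29 (SE; edgeR's adjusted p = 4.43e-05). Within each age, libraries 2 and 4 were above libraries 1 and 3, and the fall was -2.26 in libraries 1 and 3 alone and -2.08 in libraries 2 and 4 alone.

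mmu-miR-141-3p, from the other cluster, was far rarer, with 4, 25, 20 and 24 counts in adult libraries 1 to 4 and 2, 6, 2 and 16 in neonatal libraries. Adult library 1, at 3.88 CPM, was below neonatal library 4, at 5.72 CPM, so the groups overlapped. The mean fell from 10.7 ± 5.65 to 2.49 ± 2.25 CPM, which in the fit was a log2 fold change of -2.03 ± 0.54 (edgeR's adjusted p = 0.00522). In 2 of the neonatal libraries it did not reach 3 counts, which leaves the extent of its fall poorly determined.

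**Figure D1:**
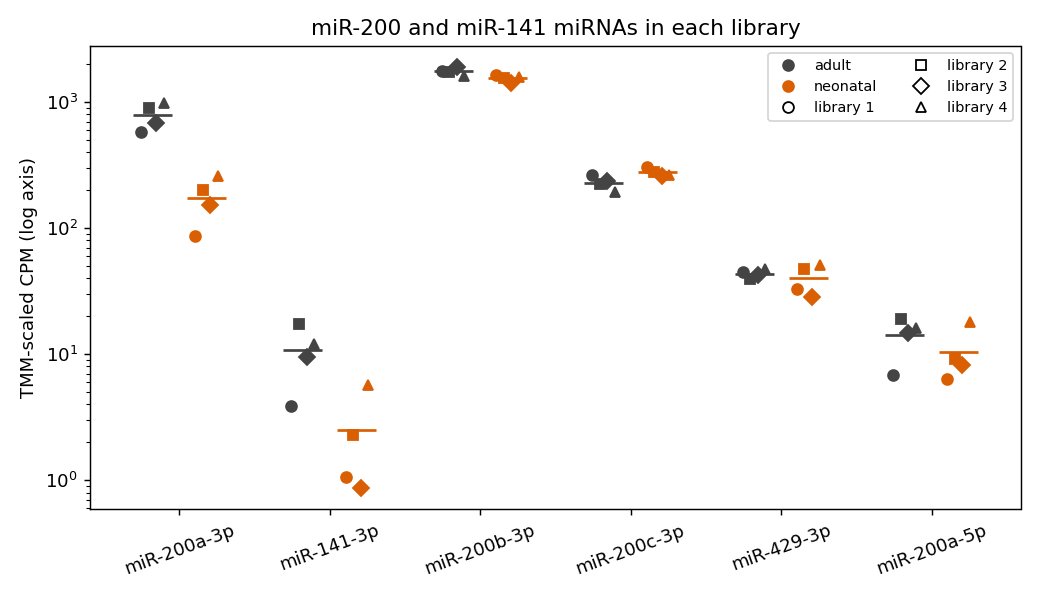
TMM-scaled CPM of the 6 members on a log axis, 1 point per library (grey adult, orange neonatal, marker shape gives the library number) and a line at each group's mean. Of the 6, miR-200a-3p has groups that do not overlap (579 to 993 CPM in adult and 87.5 to 262 CPM in neonatal libraries).

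None of the members of the other seed passed on the TMM scale. mmu-miR-200b-3p stood at 1772, 1748, 1902 and 1611 CPM in adult libraries 1 to 4 and at 1652, 1546, 1412 and 1576 CPM in neonatal libraries. Neonatal library 1 was above adult library 4, and the change of -0.19 ± 0.13 did not pass (edgeR's adjusted p = 0.224), with an interval of -0.44 to 0.07 at 2 SE. Its libraries varied little, with a coefficient of variation of 6.77% in adult and 6.47% in neonatal libraries, against 24.3% and 42.1% for miR-200a-3p of the same cluster.

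mmu-miR-200c-3p, the main strand of the chromosome 6 cluster, stood at 262.2, 225, 238 and 195 CPM in adult libraries 1 to 4 and at 308, 280.4, 258 and 262.1 CPM in neonatal libraries. The groups overlapped only through adult library 1. Its log2 fold change of 0.27 ± 0.15 did not pass (edgeR's adjusted p = 0.124). It passed as higher with RLE scaling (0.40, edgeR's adjusted p = 0.0266), with library totals (0.91) and with DESeq2 (0.40, adjusted p = 0.0138), and without neonatal library 4 (0.40, edgeR's adjusted p = 0.0297).

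mmu-miR-429-3p, the third hairpin of the chromosome 4 cluster, had 46, 56, 89 and 95 counts in adult and 62, 124, 65 and 144 counts in neonatal libraries 1 to 4, which is 43.5 ± 3.59 and 40.1 ± 11.1 CPM. The groups overlapped, and the change of -0.11 ± 0.22 did not pass (edgeR's adjusted p = 0.676), with an interval of -0.56 to 0.34 at 2 SE. Its sign turned with RLE scaling and library totals, and it passed as higher with library totals (0.51, edgeR's adjusted p = 0.0477), as did miR-200b-3p (0.45, edgeR's adjusted p = 0.00503).

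With library totals, 2 members were therefore lower and 3 higher, where 18.1% of all miRNAs were lower and 49.6% higher. With RLE scaling 2 were lower and 1 higher, against 31.5% and 32.8%. Under each of the 3 scalings miR-200a-3p and miR-141-3p were lower, at -1.55 and -1.42 with library totals.

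**Figure D2:**
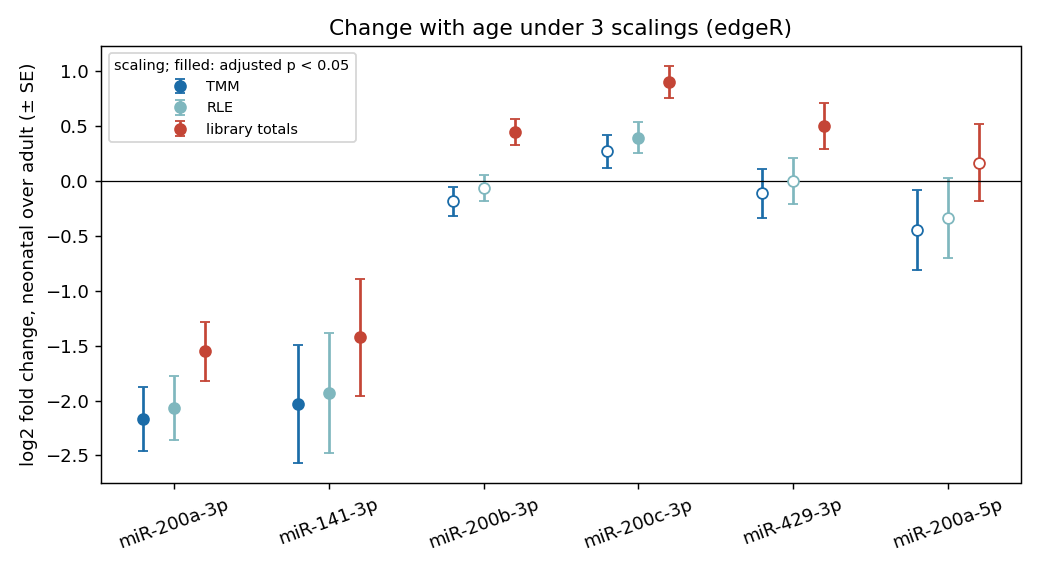
Log2 fold change of each member, neonatal over adult, with its SE, by edgeR under TMM, RLE and library-total scaling (filled points passed at an adjusted p under 0.05). miR-200a-3p and miR-141-3p lie below 0 under all 3 scalings, while miR-200b-3p, miR-429-3p and miR-200a-5p change sign between TMM and library totals.

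Ratios of 2 members within a library do not depend on scaling. Of 6 pairs chosen, 4 had at least 3 counts on both sides in every library and were tested, with p-values adjusted over these 4. Of single miRNAs tested, 57.3% had groups that did not overlap. That share among ratios of other miRNA pairs was not counted, apart from strands of the same hairpin. An exact permutation test of 4 against 4 libraries cannot give a two-sided p below 0.0286, which is 0.0381 after adjustment where 3 pairs reach it. With the replicate numbers kept as pairs, a sign-flip test of 4 pairs cannot give a p below 0.125, so each of the 3 calls below is lost (adjusted p = 0.167 for each, exact sign-flip test), although the differences have the same size.

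Within the chromosome 4 cluster, miR-200a-3p counts were 32.7%, 51.6%, 35.9% and 61.6% of miR-200b-3p counts in adult libraries 1 to 4, and 5.30%, 12.9%, 10.7% and 16.6% in neonatal libraries. The groups did not overlap. The log2 ratio fell by 2.06, which is 4.17-fold (exact permutation test, two-sided, p = 0.0286, adjusted p = 0.0381). miR-200b-3p over miR-429-3p, the other pair of this cluster, had mean log2 ratios of 5.33 ± 0.19 in adult and 5.30 ± 0.38 in neonatal libraries, and their difference of -0.03 missed the threshold (p = 0.971 in a two-sided exact permutation test).

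Between the clusters, the seed-sharing pair miR-200b-3p and miR-200c-3p differed in ratio by less than the first pair, but also without overlap. With 0.5 added to each count, miR-200b-3p was 6.75, 7.75, 7.99 and 8.26 times miR-200c-3p in adult libraries 1 to 4. In neonatal libraries it was 5.35, 5.51, 5.47 and 6.01 times. The log2 ratio fell by 0.46, which is 1.37-fold (exact permutation test, two-sided, p = 0.0286, adjusted p = 0.0381).

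The pairs with miR-141-3p had too few counts for the test. Within the chromosome 6 cluster, miR-141-3p counts were 1.48%, 7.76%, 4.00% and 6.19% of miR-200c-3p counts in adult libraries 1 to 4, and 0.346%, 0.816%, 0.338% and 2.18% in neonatal libraries. Neonatal library 4 was above adult library 1, and the mean difference in the log2 ratio was -2.47. Against miR-200a-3p, which shares its seed, miR-141-3p counts were 1.31% ± 0.524 (SD, n = 4) in adult and 1.28% ± 0.668 in neonatal libraries, a mean difference in log2(miR-200a-3p over miR-141-3p) of -0.05.

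**Figure D3:**
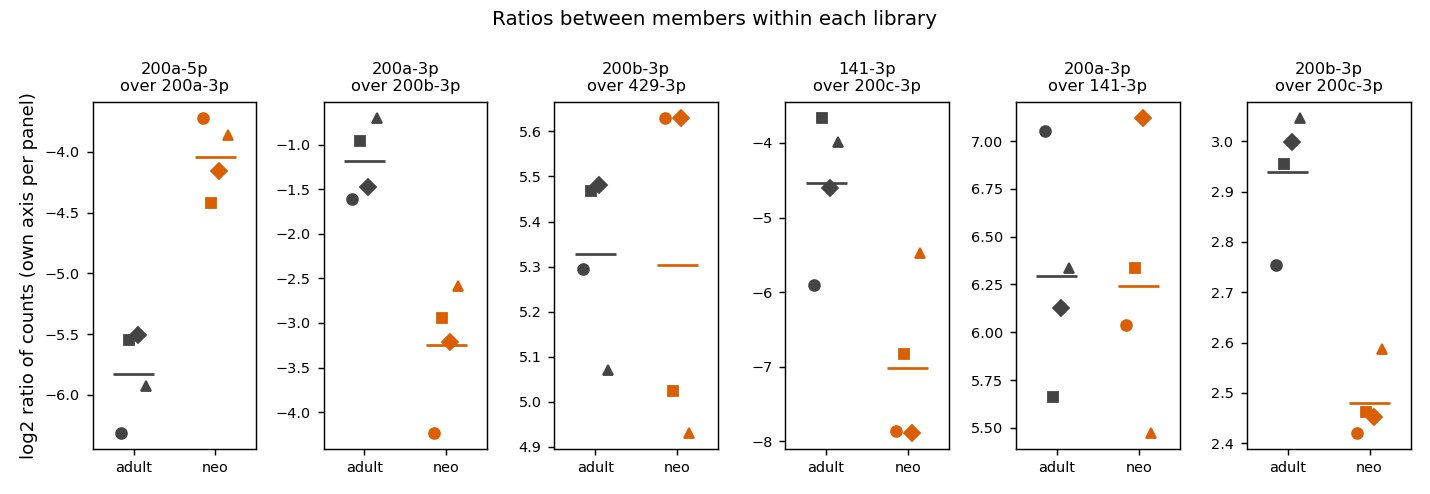
Log2 ratios of counts for the 6 pairs of members (0.5 added to both counts), 1 point per library (grey adult, orange neonatal; circle, square, diamond and triangle are libraries 1 to 4) and a line at each mean, each panel with its own axis. The groups do not overlap for miR-200a-5p over miR-200a-3p, miR-200a-3p over miR-200b-3p and miR-200b-3p over miR-200c-3p.

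Reads of the pair miR-200a-3p and miR-141-3p are not fully separated in the deposited table. In 4 of 8 libraries the estimated counts of both ended in a fraction, and the fraction was the same for both in all 8 (for example 1977.83 and 23.83 in adult library 4, and 731.5 and 16.5 in neonatal library 4). Whether the fall of miR-141-3p comes from its own reads or from reads of the far more abundant miR-200a-3p was not tested. With both summed as 1 feature the log2 fold change was -2.15 ± 0.28 (edgeR's adjusted p = 4.36e-05), close to that of miR-200a-3p alone. Since miR-141-3p counts were only 1.31% (adult) and 1.28% (neonatal) of miR-200a-3p counts, the sum follows miR-200a-3p. It cannot show what miR-141-3p did. Fractions also occurred for miR-200b-3p in 2, miR-200c-3p in 2 and miR-429-3p in 3 of the 8 libraries. The ratios between these members may therefore also rest on partly shared reads, which was not tested.

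Summed by cluster, miR-200a-3p, miR-200b-3p and miR-429-3p stood at 2590.4 ± 132 CPM in adult and 1762 ± 124 CPM in neonatal libraries, and miR-200c-3p with miR-141-3p at 241 ± 24.8 and 279.7 ± 22.2 CPM. The ratio of the chromosome 4 to the chromosome 6 sum was 9.0 to 12.8 in adult and 5.73 to 7.05 in neonatal libraries, without overlap. Within the chromosome 4 sum the mean of miR-200a-3p went from 789 to 175 CPM. Those of miR-200b-3p (1758 to 1546 CPM) and miR-429-3p (43.5 to 40.1 CPM) moved less. Summed by seed, the AAUACUG members stood at 2032 ± 138 and 1864 ± 122 CPM, and the AACACUG members at 799 ± 196 and 178 ± 75.8 CPM. The AACACUG members held 21.9%, 31.3%, 24.1% and 35.2% of the 3p family counts in adult libraries 1 to 4, and 4.25%, 9.74%, 8.24% and 12.4% in neonatal libraries. These sums are descriptions, with no test, and the AACACUG sum is almost wholly miR-200a-3p.

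The hairpins of miR-200a and miR-200b are shown with both mature strands in capitals, the 5p strand first, because the balance of the strands differed between the ages in one and was close in the other. Their 5p strands share the seed AUCUUAC.

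miR-200a, chr4:156054896-156054985, minus strand: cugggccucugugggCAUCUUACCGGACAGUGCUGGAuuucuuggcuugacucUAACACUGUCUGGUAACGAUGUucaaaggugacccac
miR-200b, chr4:156055681-156055750, minus strand: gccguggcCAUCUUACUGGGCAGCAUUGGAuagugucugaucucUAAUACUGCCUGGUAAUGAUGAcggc

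mmu-miR-200a-5p, the less abundant strand, had 7, 27, 31 and 32 counts in adult and 12, 24, 19 and 50 counts in neonatal libraries 1 to 4. The groups overlapped at 14.1 ± 5.18 and 10.4 ± 5.10 CPM, and its change of -0.44 ± 0.36 did not pass (edgeR's adjusted p = 0.304), with an interval of -1.17 to 0.29 at 2 SE. As a share of the counts of its hairpin, the 5p strand took 1.16%, 2.05%, 2.12% and 1.59% in adult libraries and 6.82%, 4.38%, 5.18% and 6.39% in neonatal libraries. The 95% Wilson intervals, which cover counting error only, ran from 0.563% to 2.38% in adult library 1 and from 3.94% to 11.5% in neonatal library 1.

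The log2 ratio of miR-200a-5p to miR-200a-3p rose by 1.79, which is 3.45-fold, without overlap between the groups (exact permutation test, two-sided, p = 0.0286, adjusted p = 0.0381). A further fit covered the 79 hairpins with both strands past the filter and neither strand's name on another precursor. There the ratio also passed (limma's adjusted p = 0.000319) and was the fourth largest rise. In that fit 40.5% of hairpins changed in either direction and 22.8% rose, the median change over all of them was -0.22, and 36.7% had groups that did not overlap. A change in strand ratio was thus common among these hairpins.

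The neighbouring miR-200b hairpin had 26, 51, 77 and 56 counts of its 5p strand in adult and 56, 95, 60 and 88 in neonatal libraries. The 5p share was 1.75% ± 0.26 (SD, n = 4) in adult and 1.96% ± 0.233 in neonatal libraries, with overlap, and the change in strand ratio of 0.16 ± 0.21 (SE) did not pass (limma's adjusted p = 0.547). Whether the 2 hairpins differ in this change was not tested. Of the other strands, miR-200c-5p and miR-429-5p had no count in any library, and miR-141-5p had 1 count, in neonatal library 2.

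**Figure D4:**
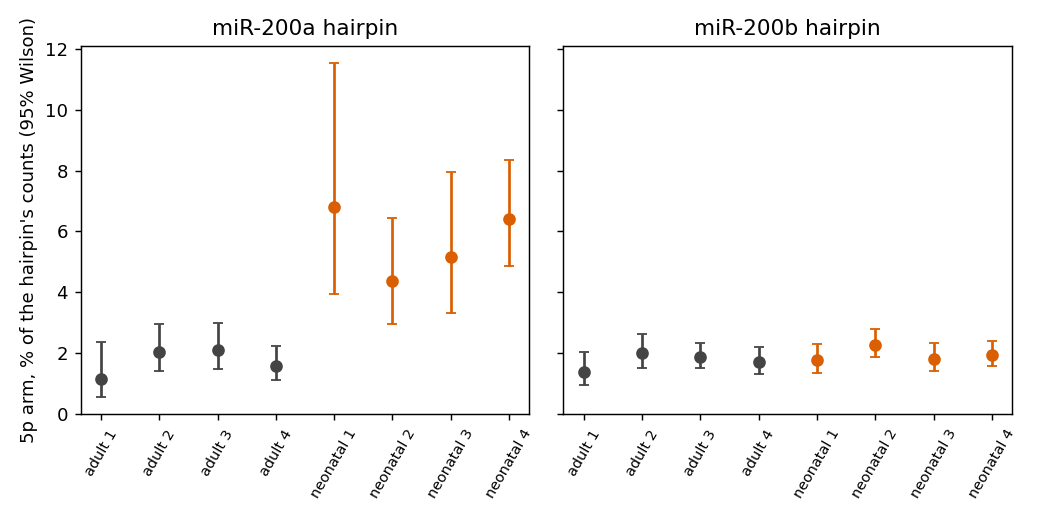
Share of the 5p strand among the counts of the miR-200a and miR-200b hairpins in each library, with 95% Wilson intervals. For miR-200a the adult libraries lie at 1.16% to 2.12% and the neonatal libraries at 4.38% to 6.82%, while for miR-200b all 8 lie between 1.40% and 2.29%.

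Because the family is known from epithelia, 9 other miRNAs of epithelial tissues were read in the same libraries, and their part in the results was not tested. miR-205-5p and miR-375-3p, which mark squamous and endocrine or glandular epithelia, had 0 to 4 and 0 to 5 counts per library. Of miRNAs of ciliated epithelia, miR-34b-5p had 0 to 2 and miR-34c-5p 0 to 8 counts, and miR-449a-5p had 0 to 8 counts in adult and 6 to 32 in neonatal libraries. miR-215-5p, of the same family as miR-192, had 2 to 14 counts. Of the 9, 3 were tested and 2 were lower in neonatal libraries, where 34.1% of all miRNAs tested were lower: miR-203-3p, an epidermal miRNA (1449.7 ± 189 to 1010.5 ± 226 CPM, -0.52 ± 0.18, edgeR's adjusted p = 0.0193), and miR-194-5p, known from gut and liver (662 ± 69.2 to 428 ± 118 CPM, -0.63 ± 0.19, edgeR's adjusted p = 0.0115). miR-192-5p, encoded beside a copy of miR-194, did not pass (-0.23 ± 0.24, edgeR's adjusted p = 0.408). With RLE scaling miR-194-5p alone of the 3 was lower, and with library totals none of them was called. The 9 together took 0.226% to 0.339% of adult and 0.273% to 0.416% of neonatal counts.

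Lists of miRNAs of other cells were read in the same way, against the 29.1% of all tested miRNAs that were higher and the 34.1% that were lower. Of the 6 T cell and lymphocyte miRNAs 5 were lower in neonatal libraries and none higher, with a median log2 fold change of -1.36, while with library totals 3 were lower and 1 higher. All tested erythroid (3 of 5 listed), endothelial (2 of 2) and stromal (3 of 6) miRNAs were higher in neonatal libraries under each of the 3 scalings. The 2 endothelial ones are strands of the miR-126a hairpin, and the erythroid miR-486a-5p and miR-486b-5p had near-equal neonatal means (257 and 267 CPM). Such entries may not be separate observations, as may miR-142a-3p and miR-142a-5p of the T cell list. Neither of the 2 myeloid miRNAs had enough counts to test. Summed shares of all counts were 0.00949% to 0.0202% in adult and 0.0356% to 0.0998% in neonatal libraries for the erythroid list, 0.00375% to 0.00607% and 0.0162% to 0.0185% for the endothelial list, 0.00299% to 0.00662% and 0.0132% to 0.0221% for the stromal list, and 0.00023% to 0.000717% and 0.000452% to 0.0011%, with overlap, for the myeloid list. Their part in the results was not tested, and in such bulk libraries fewer cells of a type and less RNA per cell cannot be told apart.

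The G and C content of the mature strand was 40.9% for miR-200a-3p, miR-141-3p and miR-429-3p alike, 36.4% for miR-200b-3p 43.5% for miR-200c-3p and 54.5% for miR-200a-5p. The 53 tested miRNAs within 2.5 points of 40.9% had a median log2 fold change of -0.55, the 29 around 36.4% one of -0.68 and the 48 around 43.5% one of -0.06, against 0.06 for the 314 with a sequence in the table (83.7% of those tested). The part of base composition in the members' changes was not tested.

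The miRNAs outside the family with levels most like those of miR-200a-3p over the 8 libraries were miR-669d-5p (Pearson r = 0.988 of log2(CPM + 1)), miR-378a-5p (0.988) and miR-19b-3p (0.985). After each age group's mean was subtracted, they were miR-1843a-5p (0.978), miR-425-3p (0.976) and miR-194-5p (0.962). On that measure the other members stood at 0.82 (miR-200a-5p), 0.80 (miR-141-3p), 0.63 (miR-429-3p), -0.40 (miR-200b-3p) and -0.73 (miR-200c-3p). All miRNAs of a library share its depth and preparation, so these values describe the 8 libraries and carry no p.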

How the data were processed

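The authors deposited estimated counts, not normalized, per mature miRNA and precursor, from reads placed on the build mm10 per the submitters' processing notes. Which aligner, counter and annotation release made them is not given in the sources used here. Values above 0 were whole in 71.4% of cases, within 0.001. Libraries were made with a small RNA ligation kit, per the labels' protocols, whose sequence preferences make levels of different miRNAs not directly comparable. Counts were summed per mature miRNA (1978) and rounded, then filtered with filterByExpr (minimum count 10, total 15, 375 kept). They were tested with edgeR 4.0.16 (quasi-likelihood F test, TMM, age as the only term, Benjamini-Hochberg over all 375) in R 4.3.3. On simulated counts with 2-fold rises and falls, the test recovered 91.7% of changes and called 3.37% of unchanged miRNAs. The median log2 error there was -0.12. The simulation was not built with a difference in scaling between the ages, so it does not bear on the choice of scaling. Ratios had 0.5 added to each count. limma 3.58.1 and DESeq2 1.42.0 gave alternatives. The named miRNAs are the 6 members, the other strands of their hairpins, fixed lists of cell type miRNAs, and the 3 most like miR-200a-3p by 2 measures. Members and lists were chosen with earlier results of these data known.

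Both ages carry replicate numbers 1 to 4. After group means were subtracted, adult and neonatal libraries of the same number correlated at r = 0.256 to 0.415. Unlike-numbered ones ran from -0.534 (adult 1 with neonatal 4) to 0.482 (adult 2 with neonatal 4). Most unlike-numbered values were negative, though adult 1 with neonatal 3 stood at 0.397. The main tests did not treat the numbers as pairs, and a block on the number was an alternative. No library was treated as a copy of another: between those of a group the chi-square over its degrees of freedom was 15.7 to 362. It was 40.0 for adult 1 with 3 and 51.7 for adult 2 with 4, against 143 to 362 for the other adult pairs. For neonatal 1 with 3 it was 15.7, but neonatal 2 with 4, at 65.9, was above neonatal 2 with 3, at 52.5. The tests without a block treat the libraries of a group as exchangeable.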

Additional observations from a re-analysis of the deposited data

Results flagged for a closer look

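In adult library 1 the 6 members took 0.215% of all counts, below the other 3 adult libraries, the nearest of which stood at 0.232%. The gap was 0.955 of the range of the adult libraries, above the critical value of 0.829 for 4 samples. It was the only one of 36 groups of 4 values checked to pass, where chance gives about 1 in 20. Adult library 1 was also the smallest library and held the lowest adult values of miR-200a-3p, miR-200a-5p and miR-141-3p.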

How the results depend on the processing

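Settings tried were RLE scaling, library totals, no filter, at least 10 CPM in 4 libraries, DESeq2, limma-voom, the replicate block and leaving out each library, and, added after the data were seen, libraries 1 and 3 or 2 and 4 alone, miR-200a-3p with miR-141-3p summed, and fractions dropped. miR-200a-3p (-2.35 to -1.55) and miR-141-3p (-2.77 to -1.42) were lower and passed in every setting that tested them; miR-141-3p had too few counts for the test at 10 CPM and in libraries 1 and 3 alone. With library totals 186 miRNAs were higher and 68 lower, in place of 109 and 128, and miR-200a-5p went to 0.17, miR-200b-3p to 0.45 and miR-429-3p to 0.51. miR-429-3p was also above 0 with RLE scaling (0.0024), DESeq2 (0.0042) and libraries 2 and 4 alone (0.14). miR-200c-3p passed with RLE scaling (0.40), library totals (0.91) and DESeq2 (0.40). The causes were not tested.

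With libraries left out in turn, log2 changes ran from -0.76 to -0.25 for miR-200a-5p, from -0.21 to -0.10 for miR-200b-3p (neither ever passed), from -0.17 to 0.04 for miR-429-3p (0.0035 and 0.0423 without neonatal library 1 or 3), from 0.25 to 0.40 for miR-200c-3p, and from -0.13 to 0.10 for miR-200b-3p over miR-429-3p. The replicate block changed no call of a member. For the ratios it was a sign-flip test, whose smallest p with 4 pairs is 0.125 (adjusted p = 0.167), so the changes of 1.79 (miR-200a strands), -2.06 (miR-200a-3p over miR-200b-3p) and -0.46 (miR-200b-3p over miR-200c-3p) could not pass it. Depth limits miR-141-3p and miR-200a-5p most, at 2 to 25 and 7 to 50 counts per library.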
